A study of Mus musculus with 4 samples.

Results

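The piRNA pathway and germ granule genes described here are Piwil1, Piwil2, Piwil4, Ddx4, Mael, Tdrkh, Tdrd1, Tdrd7, Mov10l1 and Pld6, a set of 10 genes taken by symbol and not by their values. All 10 occur in the expression tables of the mouse oocyte libraries, which list 16861 genes each. In oocytes whose chromatin surrounds the nucleolus, the transcript of the RNA helicase Ddx4 was lower and that of the mitochondrial tudor protein Tdrkh was higher than in oocytes whose chromatin does not. Both passed the threshold of the main test, as did 7.93% of all genes tested. Neither did so in that test once the libraries were scaled to a common median. That scaling made the difference of Ddx4 larger (log2 fold change from -0.74 to -0.89) and that of Tdrkh smaller (from 0.40 to 0.25). Under the same scaling, limma's voom on read pairs called Ddx4 and not Tdrkh, beside 14.6% of all genes. Both calls of the main test also depended on which libraries were included. Tdrd1 and Mael had differences close in size to that of Tdrkh but did not pass the threshold, and the other 6 genes were present at about 1 FPKM or less.

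PIWI-interacting RNAs, or piRNAs, are small RNAs of the germ line that guide PIWI proteins to complementary transcripts, above all those of transposons. Their precursors are cut and trimmed at the outer membrane of mitochondria, and the proteins that do so gather with RNA helicases and tudor-domain proteins in germ granules, dense bodies of RNA and protein in the cytoplasm. In the mouse these genes are best known from male germ cells, in which the loss of most of them blocks sperm formation, whereas the females stay fertile and their oocytes also use endogenous siRNAs against transposons.

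The cells are germinal vesicle (GV) oocytes of 3-week-old female C57BL/6J mice, stripped of their cumulus cells. The DNA dye Hoechst, in medium with milrinone, and a brief exposure to ultraviolet light were used to sort them by configuration. Non-surrounded nucleolus (NSN) oocytes have diffuse chromatin, surrounded nucleolus (SN) oocytes carry a ring of condensed chromatin around the nucleolus, and the comparison asks how the transcripts differ between both configurations. There were 2 NSN and 2 SN libraries of 15 pooled oocytes each, made by Smart-seq2, in which polyadenylated RNA is reverse transcribed and amplified by PCR. No transgene or deletion is named for either group, and no treatment beyond this sorting. Nothing says that the replicates came from separate mice or collections, so each p-value measures only the spread between these libraries.

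The values are FPKM, the read pairs of a gene relative to its length and to the total of the library, so that genes can be set side by side on this scale. Totals recovered from the FPKM were between 17069772 and 17998361 read pairs per library. Oocyte markers were abundant throughout, and 8 of the 11 (Gdf9, Bmp15, Zp1, Zp2, Zp3, Nobox, Nlrp5 and Mos) were called lower in SN oocytes by limma, beside 1.98% of all genes tested. Of these, 5 were called after median scaling, 6 without NSN replicate 2, 7 without SN replicate 1, 1 (Gdf9) without SN replicate 2 and 0 without NSN replicate 1 (8 at an unadjusted p under 0.05). Sums over the 11 genes were 28573 and 28414 FPKM in NSN and 21892 and 20451 FPKM in SN oocytes, and the part of this in the results below was not tested. Of 16 granulosa and cumulus cell markers, 10 were listed and summed to 9.66 and 13.8 FPKM in NSN and to 14.3 and 13.5 FPKM in SN oocytes. Of 12 stroma, vessel and blood markers 3 were listed, with sums between 4.68 and 5.10 FPKM. Most of each sum came from 1 gene, Cyp19a1 (5.81 to 8.38 FPKM) in the first list and Pecam1 (4.49 to 4.96 FPKM) in the other. Foxl2, Amh, Amhr2, Nr5a1, Fst and Tnfaip6 of the first list were not analysed here. In limma, 4 granulosa and cumulus markers and 1 marker of the other list were tested, and 0 were called or had an unadjusted p under 0.05. Voom on genes with at least 10 read pairs tested 10 and 3 of them and called 0, with 1 granulosa marker, Nr5a2, at an unadjusted p under 0.05 (adjusted p = 0.0849). In pooled oocytes, fewer oocytes with a transcript and less of it per oocyte cannot be told apart.

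The members fell into a group of 4 at a mean of 19.3 to 32.6 FPKM and a group of 6 at a mean of 0.117 to 0.918 FPKM, with no library in which the groups met. Averaged over the 4 libraries, Tdrkh was highest with 32.6 FPKM, followed by Mael with 29.1, Tdrd1 with 27.9 and Ddx4 with 19.3 FPKM. Neighbours among these 4 overlapped over the libraries. Their order was not the same throughout, since Ddx4 ranked 1 of the 10 in NSN replicate 1 and 4 in each of the other 3 libraries. The lower group began with Mov10l1 at 0.918 FPKM, Piwil1 at 0.799 FPKM and Tdrd7 at 0.597 FPKM, again with overlap between neighbours. Piwil2 at 0.269 FPKM, Pld6 at 0.166 FPKM and Piwil4 at 0.117 FPKM stood below Tdrd7 in every library and overlapped each other. The 3 PIWI genes thus all belonged to the lower group, and the most abundant of them, Piwil1, ranked 10424 of all 16861 genes by mean FPKM, against 1792 for Tdrkh.

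**Figure D1:**
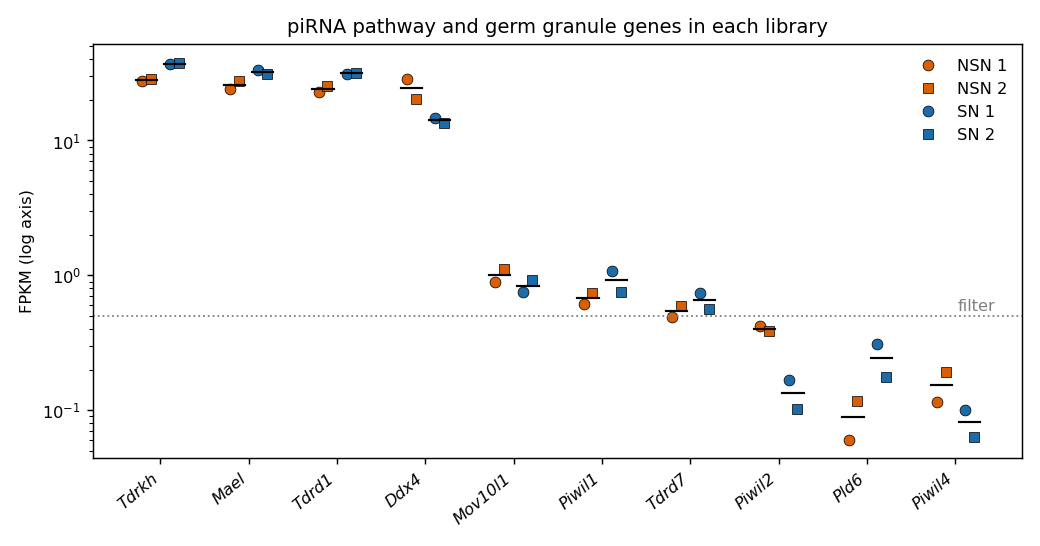
FPKM of each member (log axis) in the 2 NSN libraries (orange) and the 2 SN libraries (blue), with the group mean as a bar and the filter of 0.5 FPKM as a dotted line. Tdrkh, Mael, Tdrd1 and Ddx4 lie above 13 FPKM in every library, Ddx4 is the only one of these 4 with its SN libraries below its NSN libraries, and the other 6 lie at or under 1.11 FPKM.

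The promoters of the 4 abundant members are shown because the comparison turns on these genes. RefSeq promoters, from 250 bases before to 50 bases after a start site on GRCm38.p6, could be matched for 9 of the 10 members, not for Piwil2, and these 9 hold 15 start sites. The 250 bases before the start are printed 5′ to 3′ on the strand of the gene, with the letters CACGTG, an E-box, in capitals. Ddx4 lies at chr13:112652311-112652560 on the minus strand, Mael at chr1:166238745-166238994 on the minus strand, Tdrd1 (the first of 3 start sites) at chr19:56825959-56826208 on the plus strand and Tdrkh at chr3:94412994-94413243 on the plus strand.
Ddx4: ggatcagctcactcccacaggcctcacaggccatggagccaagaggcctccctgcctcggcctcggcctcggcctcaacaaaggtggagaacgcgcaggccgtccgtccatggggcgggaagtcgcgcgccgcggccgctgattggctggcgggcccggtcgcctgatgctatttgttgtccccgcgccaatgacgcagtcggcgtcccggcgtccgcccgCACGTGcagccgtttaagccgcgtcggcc
Mael: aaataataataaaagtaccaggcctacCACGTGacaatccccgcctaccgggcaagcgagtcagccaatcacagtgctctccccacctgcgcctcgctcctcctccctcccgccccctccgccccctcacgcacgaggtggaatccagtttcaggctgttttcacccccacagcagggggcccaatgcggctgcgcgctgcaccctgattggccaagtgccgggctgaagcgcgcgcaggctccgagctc
Tdrd1: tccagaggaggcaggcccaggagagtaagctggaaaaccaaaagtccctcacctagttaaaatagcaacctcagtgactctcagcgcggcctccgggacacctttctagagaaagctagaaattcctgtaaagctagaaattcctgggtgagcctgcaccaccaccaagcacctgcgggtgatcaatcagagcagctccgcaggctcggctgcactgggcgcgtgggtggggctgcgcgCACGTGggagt
Tdrkh: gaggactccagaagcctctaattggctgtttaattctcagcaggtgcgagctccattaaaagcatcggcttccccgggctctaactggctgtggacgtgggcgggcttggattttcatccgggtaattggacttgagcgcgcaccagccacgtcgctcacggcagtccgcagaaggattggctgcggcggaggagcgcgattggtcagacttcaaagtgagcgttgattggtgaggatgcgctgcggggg
The E-box of Ddx4 begins at position -29 from the start site, that of Mael at -223 and that of Tdrd1 at -11. CACGTG does not occur in the Tdrkh promoter.

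Of the 9 members with a promoter, 6 held CACGTG in this window on at least 1 start site (Piwil1, Mael, Ddx4, Tdrd1, Mov10l1 and Pld6), against 8.09% of all 27025 genes and 7.15% of all 32851 promoters in the table. These letters read the same on both strands. The 7 member promoters with an E-box held 18 to 38 CpG, while the median over all promoters was 7, and the share over all promoters was not matched for CpG. In Piwil1 the letters occur at -179 and at -154, in Pld6 at -33 and in Mov10l1 at -246. Of 4 other motifs searched on both strands, TCCCGC occurred in Mael and Ddx4 (22.0% of all genes) and CAACTG in Piwil1 and Tdrd7 (15.4%). TGACGTCA (2.03% of all genes) and TGACGCAA (0.562%) occurred in 0 of the 9, and no match overlapped one of another motif. Members with the E-box were found among those with higher and with lower values in SN oocytes.

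SN and NSN oocytes were compared with limma on log2(FPKM + 0.5) over the 11672 genes with a mean of at least 0.5 FPKM, and calls needed a fold of at least 1.2 together with a p under 0.05 after Benjamini-Hochberg adjustment. Fold changes on this scale understate the change of genes of low FPKM. Of the 7 members tested, 2 were called, Tdrkh higher and Ddx4 lower in SN oocytes, while limma called 7.93% of all genes tested, 5.95% higher and 1.98% lower. The median log2 fold change of the 7 was 0.26, with 5 above and 2 below 0, beside a median of 0.14 over all genes tested. Over all 10 members, the FPKM of the groups did not overlap in 8, while they did not overlap in 55.5% of all listed genes. Dividing each library by the median ratio of its genes moved the median of all genes to 0.005 and lowered the calls from 926 genes, 75.1% of them higher in SN, to 234 genes, 28.6% of them higher. After this median scaling, limma called 0 members and 2.0% of all genes. An unadjusted p under 0.05 was then found for 3 of the 7 members, beside 3166 of all 11672 genes tested. Limma's voom, fitted to the recovered read pairs, called more genes in general. It called 3 members (Ddx4, Tdrd1 and Tdrkh) beside 19.7% of all genes, and with median scaling 1 member, Ddx4, beside 14.6%. Taken gene by gene, 2 libraries against 2 allow no exact two-sided permutation p under 0.333.

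**Figure D2:**
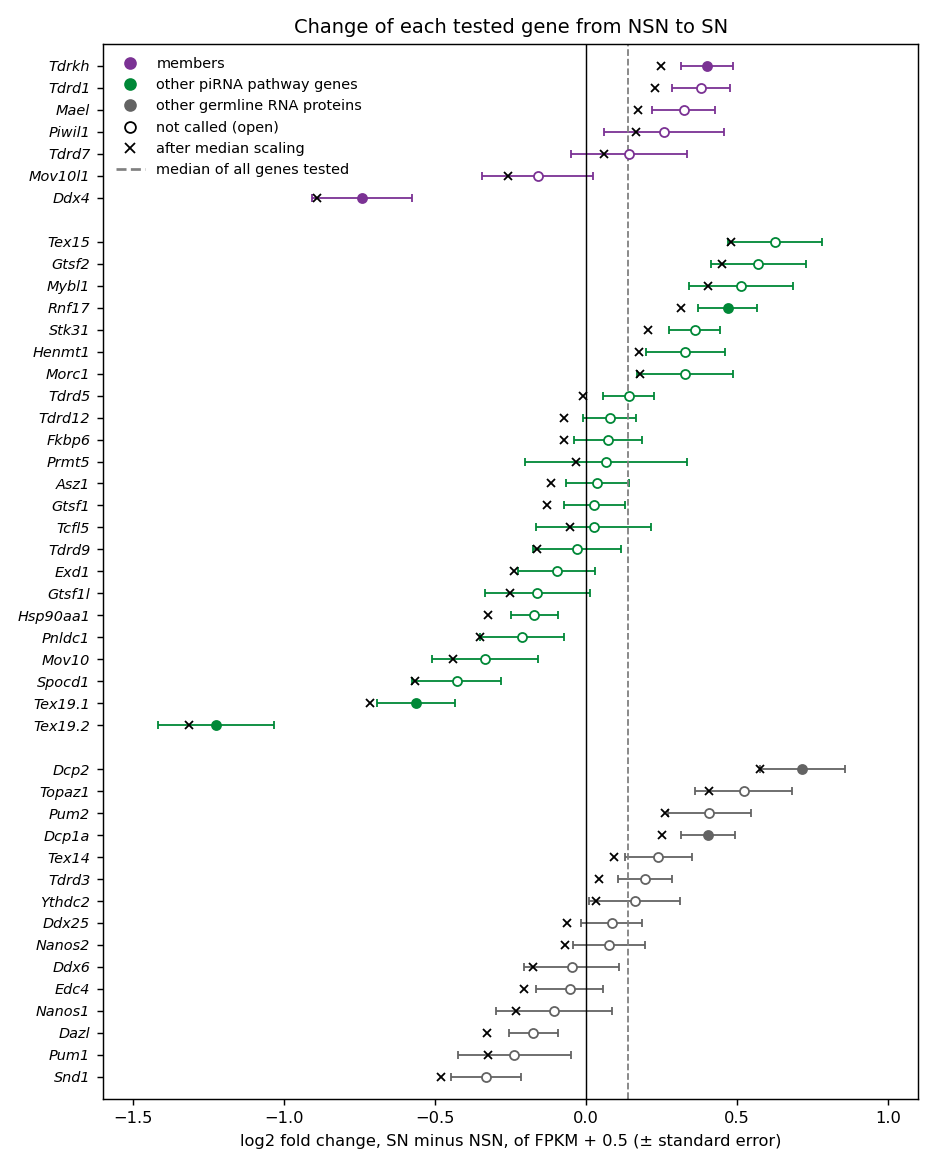
log2 fold change of FPKM + 0.5 from NSN to SN oocytes, with its standard error, for the 7 tested members (purple), 23 other piRNA pathway genes (green) and 15 other germline RNA proteins (grey). Filled points were called, crosses give the value after median scaling, and the dashed line marks the median of all genes tested at 0.14. Tdrkh at 0.40 and Ddx4 at -0.74 are the called members.

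Ddx4, the mouse homologue of the fly helicase vasa, is a DEAD-box RNA helicase and a defining protein of germ granules. Its FPKM was 28.5 and 20.2 in the NSN libraries against 14.8 and 13.6 in the SN libraries. Both SN libraries were thus below both NSN libraries, and the NSN replicates differed more from each other than the SN replicates did. The group means were 24.4 ± 5.86 and 14.2 ± 0.825 FPKM (SD, n = 2), on 1496, 1092, 759 and 737 read pairs in this order. Ddx4 fell with a log2 fold change of -0.74 (standard error, SE, 0.165, limma adjusted p = 0.0472), which is 1.67-fold lower in SN oocytes. Relative to the median of all genes the difference was larger, -0.89 after median scaling, where the limma adjusted p was 0.0590. The call was kept without NSN replicate 2 (-0.98, limma adjusted p = 0.00929) and lost without NSN replicate 1 (-0.50, adjusted p = 0.108), without SN replicate 1 (-0.80, 0.0924) and without SN replicate 2 (-0.69, 0.129). The gene (ENSMUSG00000021758.16) spans chr13:112734867-112789009 on the minus strand of GRCm39, and none of its exons is shared with another annotated gene.

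Tdrkh is a tudor and KH domain protein of the mitochondrial outer membrane that takes part in trimming the 3′ ends of piRNA intermediates. It had 27.4 and 28.7 FPKM in the NSN libraries against 36.7 and 37.7 FPKM in the SN libraries. The replicates lay close together and the groups did not overlap. Means were 28.1 ± 0.869 FPKM in NSN and 37.2 ± 0.703 FPKM in SN oocytes (SD, n = 2), on 2935 to 4164 read pairs per library. Tdrkh rose with a log2 fold change of 0.40 (SE 0.0854, limma adjusted p = 0.0452), or 1.32-fold. All genes tested shifted the same way at the median, and after median scaling Tdrkh stood at 0.25 on the log2 scale (limma adjusted p = 0.119). Without NSN replicate 2 the gene was still called (0.43, limma adjusted p = 0.0413), whereas the call was lost without NSN replicate 1 (0.37, adjusted p = 0.143), SN replicate 1 (0.42, 0.114) or SN replicate 2 (0.38, 0.144). In the vM39 release of GENCODE, 35.8% of the exon length of Tdrkh (ENSMUSG00000041912.14, chr3:94320453-94342614 on the plus strand of GRCm39) is shared with Oaz3 and 1700040D17Rik, so read pairs over the shared part are uncertain. That exon length is 7870 bases, while 6142 bases were recovered from the FPKM, so the share need not hold for the deposited values. How read pairs over shared exons were counted was not examined. Oaz3 itself had 1.66 and 2.62 FPKM in NSN and 1.88 and 2.79 FPKM in SN oocytes.

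Tdrd1 is a tudor-domain scaffold of germ granules that binds methylated arginines of PIWI proteins, Piwil2 above all. Its levels were 22.8 and 25.6 FPKM in NSN and 31.3 and 31.8 FPKM in SN oocytes. All SN values were above all NSN values, but the gene did not pass the threshold. The log2 fold change was 0.38 (SE 0.0962, limma adjusted p = 0.0597) between means of 24.2 ± 1.96 and 31.6 ± 0.330 FPKM (SD, n = 2). Tdrd1 passed when limma's voom was fitted to the recovered read pairs (0.39, adjusted p = 0.0118), with a mean of at least 5 FPKM (limma adjusted p = 0.0283) and without NSN replicate 2 (0.46, limma adjusted p = 0.0360). After median scaling the log2 fold change was 0.23 (limma adjusted p = 0.153). The gene (ENSMUSG00000025081.15) spans chr19:56814641-56858444 on the plus strand.

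Mael encodes maelstrom, an HMG-box protein that is needed for transposon silencing and for intact germ granules in male germ cells. Its FPKM was 24.1 and 27.6 in NSN oocytes against 33.5 and 31.3 in SN oocytes. The groups did not overlap here either. With means of 25.9 ± 2.53 and 32.4 ± 1.61 FPKM (SD, n = 2), the log2 fold change was 0.32 (SE 0.104, limma adjusted p = 0.0940), short of the threshold, and 0.17 after median scaling (limma adjusted p = 0.281). Mael (ENSMUSG00000040629.10) spans chr1:166028770-166066331 on the minus strand.

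Ratios between members within a library do not depend on how the libraries are scaled. Ddx4 was close to level with the other 3 abundant members in NSN oocytes and well below them in SN oocytes. The Tdrkh to Ddx4 ratio was 0.963 and 1.42 in the NSN libraries against 2.49 and 2.77 in the SN libraries, a 2.25-fold difference of the geometric means. Mael to Ddx4 gave 0.844 and 1.37 against 2.27 and 2.30, which is 2.13-fold. For Tdrd1 to Ddx4 the ratios were 0.800 and 1.26 against 2.12 and 2.34, which is 2.22-fold. None of these 3 ratios overlapped between the groups, and each had an exact permutation p of 0.333, the smallest that the design allows. Both follow from the values above, since Ddx4 was lower and the other member higher in both SN libraries. They are therefore no further evidence, and the ratios only describe the size of the difference. The 3 ratios share Ddx4, so they are not independent of each other. By contrast, Tdrd1 to Mael stayed between 0.925 and 1.02 in all 4 libraries, and Tdrkh to Tdrd1 between 1.12 and 1.204, with overlap between NSN and SN oocytes in both.

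**Figure D3:**
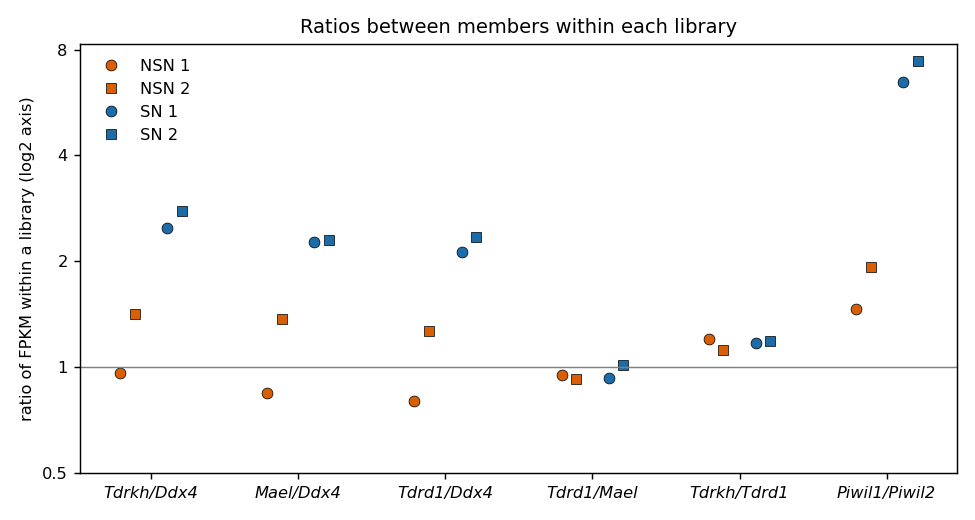
Ratio of the FPKM of 2 members within each library (log2 axis), for the 2 NSN libraries (orange) and the 2 SN libraries (blue). The ratios to Ddx4 and the Piwil1 to Piwil2 ratio are higher in both SN libraries than in both NSN libraries, while Tdrd1 to Mael and Tdrkh to Tdrd1 stay between 0.925 and 1.204.

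The PIWI proteins bind the piRNAs themselves. Piwil1 (MIWI), which carries piRNAs in later male germ cells, had 0.613 and 0.745 FPKM in NSN and 1.08 and 0.755 FPKM in SN oocytes, on 44, 55, 76 and 56 read pairs. The lower SN library was barely above the higher NSN library. Means of 0.679 ± 0.0932 and 0.918 ± 0.230 FPKM (SD, n = 2) gave a log2 fold change of 0.26 (SE 0.198, limma adjusted p = 0.403), which did not pass. The ratio of read pairs, SN to NSN, was 1.34 (exact conditional binomial 95% interval 1.03 to 1.76), an interval that leaves out the spread between replicates. The gene (ENSMUSG00000029423.12) spans chr5:128779588-128832538 on the plus strand.

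Piwil2 (MILI), the cytoplasmic PIWI protein whose bound piRNAs start the cycle of target cleavage in fetal germ cells, was lower in both SN libraries. Its FPKM was 0.421 and 0.386 in NSN and 0.167 and 0.102 in SN oocytes, with means of 0.403 ± 0.0244 and 0.134 ± 0.0461 FPKM (SD, n = 2). It did not reach the filter of 0.5 FPKM and was left out of the test by it. The recovered read pairs were 36 and 34 in the NSN libraries against 14 and 9 in the SN libraries. Relative to the library totals, the 70 read pairs of the NSN group were 3.02-fold the 23 of the SN group, with an exact conditional binomial 95% interval of 1.86 to 5.07. This interval and those that follow pool the replicates and leave out the spread between them. They also treat read pairs as independent, which PCR copies are not, so they can be too narrow. A fit added after the data were seen, limma's voom on the 16365 genes with at least 10 read pairs in all, gave Piwil2 a log2 fold change of -1.59 (adjusted p = 0.0212). This fit called 13.8% of its genes and 3.43% as lower in SN, and of the 10 members it called Ddx4, Piwil2, Tdrd1 and Tdrkh. With median scaling added, voom called 10.6% of its genes and kept Ddx4 (-0.91, adjusted p = 0.00152) and Piwil2 (-1.74, adjusted p = 0.0173), and Tdrd1 (adjusted p = 0.113) and Tdrkh (adjusted p = 0.0726) no longer passed. When limma was fitted to the FPKM of all listed genes, Piwil2 did not pass (-0.51, SE 0.126, adjusted p = 0.0821), and neither did any other gene. The gene (ENSMUSG00000033644.7) spans chr14:70609365-70666832 on the minus strand.

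Piwil4 (MIWI2), which acts in the nucleus of fetal male germ cells, was close to the limit of detection. It had 7 and 12 read pairs in NSN and 6 and 4 in SN oocytes, or 0.114, 0.191, 0.1001 and 0.0633 FPKM. The 19 read pairs of the NSN group were 1.89-fold the 10 of the SN group after allowing for the totals, with a 95% interval of 0.835 to 4.54, so a difference was not detectable at this depth. Within the libraries, Piwil1 was 1.46 and 1.93 times Piwil2 in NSN and 6.48 and 7.42 times Piwil2 in SN oocytes (exact permutation p = 0.333). The groups had to separate in this ratio, since Piwil1 was higher and Piwil2 lower in both SN libraries. Piwil4 (ENSMUSG00000036912.19) spans chr9:14607526-14652036 on the minus strand.

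Tdrd7 and Mov10l1 overlapped between the groups. Tdrd7, a tudor-domain protein of the germ granules of male germ cells, had 0.491 and 0.593 FPKM in NSN and 0.744 and 0.562 FPKM in SN oocytes. The log2 fold change was 0.14 (SE 0.192, limma adjusted p = 0.640), and the ratio of read pairs, 1.198 (95% interval 0.869 to 1.65), reached from a decrease to an increase. Mov10l1, the RNA helicase that feeds piRNA precursors into processing, had 0.889 and 1.11 FPKM in NSN and 0.751 and 0.927 FPKM in SN oocytes. The difference on the log2 scale was -0.16 (SE 0.184, limma adjusted p = 0.579), and NSN exceeded SN by a ratio of 1.19 in read pairs (95% interval 0.928 to 1.52). Tdrd7 (ENSMUSG00000035517.19) spans chr4:45965328-46035307 and Mov10l1 (ENSMUSG00000015365.17) chr15:88867085-88939371, both on the plus strand.

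Pld6 is the mitochondrial homologue of the fly nuclease zucchini that cuts piRNA precursors. It had 1 and 2 recovered read pairs in NSN and 5 and 3 in SN oocytes. These are the fewest that explain its FPKM, at a length of 948 bases, while its exons cover 5462 bases in GENCODE vM39. A multiple of 948 bases would raise the read pairs and narrow the interval below. The FPKM were 0.0606, 0.118, 0.309 and 0.176, and at this length the NSN libraries and SN replicate 2 are at or under 3 read pairs. Both SN values were above both NSN values. The ratio of 8 to 3 read pairs, 2.69 relative to the totals, had a 95% interval of 0.645 to 15.7, so no difference was detectable with these fewest counts. Of the exons of Pld6 (ENSMUSG00000043648.9, chr11:59656064-59678491 on the minus strand), 7.95% are shared with Mprip, which had 3.67 and 4.03 FPKM in NSN and 5.40 and 5.09 FPKM in SN oocytes.

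**Figure D4:**
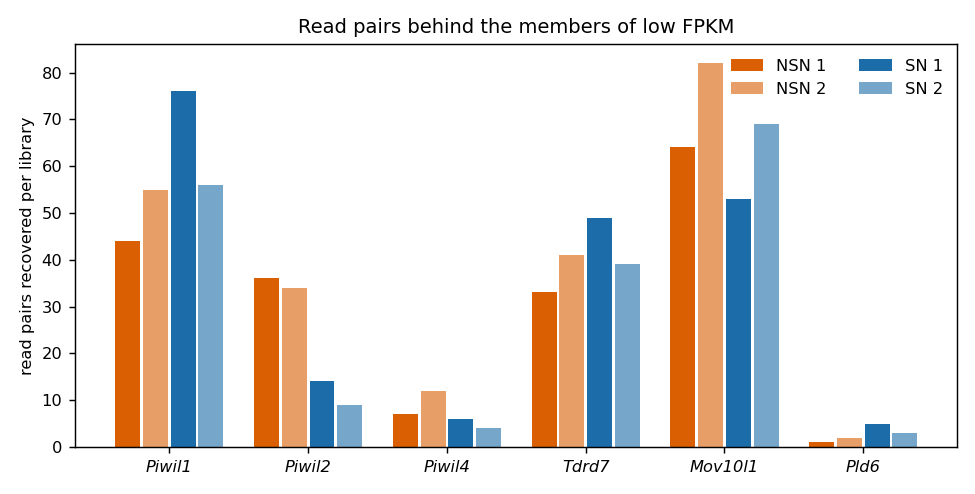
Read pairs recovered from the FPKM, as the fewest that explain it, for the 6 members of low FPKM, 1 bar for each of the 2 NSN libraries (orange) and the 2 SN libraries (blue). Piwil2 has 36 and 34 read pairs in NSN and 14 and 9 in SN oocytes, and Piwil4 and Pld6 have at most 12 in any library.

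Beyond the 10 members, 28 further genes of the piRNA pathway were looked up. Of these 26 were listed (Tdrd15 and Wdr77 were not analysed here), 23 were tested, and Tdrd6, Gpat2 and Btbd18 stayed below the filter. In the limma fit 1 was called higher and 2 were called lower in SN oocytes, beside the 5.95% and 1.98% over all genes, and the median log2 fold change of the 23 was 0.04, beside 0.14 over all genes. Rnf17, a tudor-domain protein of germ granules, was the only one of these called higher, with 26.8 and 30.6 FPKM in NSN and 39.0 and 40.6 FPKM in SN oocytes. It rose by 0.47 on the log2 scale (SE 0.0988, limma adjusted p = 0.0449), and by 0.32 after median scaling (limma adjusted p = 0.0867).

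The genes called lower were the paralogues Tex19.1 and Tex19.2, germline proteins that restrain retrotransposons. Tex19.1 had 24.9 and 20.5 FPKM in NSN and 16.1 and 14.1 FPKM in SN oocytes, with a log2 fold change of -0.56 (SE 0.129, limma adjusted p = 0.0488), and of -0.72 after median scaling (limma adjusted p = 0.0577). Tex19.2 was far less abundant, with 1.71 and 1.28 FPKM in NSN and 0.372 and 0.326 FPKM in SN oocytes, on 61, 47, 13 and 12 read pairs. It fell with a log2 fold change of -1.23 (SE 0.192, limma adjusted p = 0.0364) and was also called after median scaling (-1.32, limma adjusted p = 0.0476). The ratio of Tex19.1 to Tex19.2 was 14.5 and 16.0 in NSN and 43.4 and 43.3 in SN oocytes, so that the paralogues differed unequally between the groups (exact permutation p = 0.333). As paralogues they may share reads, and the split between them is uncertain. All 3 calls were lost without NSN replicate 1, where Rnf17 stood at 0.37 on the log2 scale (limma adjusted p = 0.139), Tex19.1 at -0.43 (0.152) and Tex19.2 at -1.07 (0.108). They were lost as well without SN replicate 1 (limma adjusted p = 0.102, 0.0830 and 0.0636 in this order) and without SN replicate 2 (0.133, 0.154 and 0.0930), and were kept without NSN replicate 2 (0.0204, 0.0182 and 0.0190).

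The 3 most abundant of the piRNA pathway genes that were not called in the limma fit had values as follows. Hsp90aa1, the chaperone that helps load PIWI proteins, had 2760 and 2491 FPKM in NSN and 2283 and 2375 FPKM in SN oocytes (log2 fold change -0.17, limma adjusted p = 0.183). Voom with median scaling called Hsp90aa1 lower (-0.33, adjusted p = 0.0261), beside 14.6% of all genes called. Gtsf1, a zinc finger cofactor of PIWI proteins, had 610 and 628 FPKM in NSN and 573 and 694 FPKM in SN oocytes, and its log2 fold change of 0.03 (limma adjusted p = 0.882) turned to -0.13 after median scaling. Asz1, an ankyrin repeat protein of the germ granules at mitochondria, had 116 and 109 FPKM against 126 and 105 FPKM, and its log2 fold change of 0.04 (limma adjusted p = 0.834) turned to -0.12 after median scaling.

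A second list held 20 other proteins of germline RNA control and of RNA granules. Of these 17 were listed (Nanos3, Dnd1 and Boll were not analysed here), 15 were tested, and Rbm46 and Meioc stayed below the filter. In the limma fit 2 were called higher and 0 lower in SN oocytes, beside 5.95% and 1.98% over all genes. An unadjusted p under 0.05 was found for 5 of the 15, beside 3695 of all 11672 genes tested. Voom on the recovered read pairs called 4 higher and 1, Snd1, lower, beside 19.7% of all genes called. With median scaling it called 1 higher and 2, Dazl and Snd1, lower, beside 14.6% of all genes. The median log2 fold change of the 15 was 0.08, beside 0.14 over all genes. The called genes encode the decapping enzyme of mRNA, Dcp2, and its activator, Dcp1a, both known from processing bodies. Dcp1a had 68.9 and 78.5 FPKM in NSN and 98.8 and 96.1 FPKM in SN oocytes (log2 fold change 0.40, SE 0.0906, limma adjusted p = 0.0479). Dcp2 had 3.18 and 3.73 FPKM in NSN and 6.34 and 5.62 FPKM in SN oocytes (0.71, SE 0.141, limma adjusted p = 0.0424). After median scaling the limma adjusted p was 0.116 for Dcp1a and 0.0636 for Dcp2. Both calls were lost without NSN replicate 1, at 0.31 on the log2 scale for Dcp1a (limma adjusted p = 0.172) and 0.61 for Dcp2 (0.117). They were also lost without either SN replicate, with limma adjusted p from 0.101 to 0.124.

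Among the others of this list the most abundant was Dazl, which binds germline mRNAs, with 305 and 332 FPKM in NSN and 271 and 294 FPKM in SN oocytes (limma adjusted p = 0.193). Voom with median scaling called it lower (-0.33, adjusted p = 0.0205). Tdrd3, a tudor-domain protein of stress granules, had 24.1 and 25.5 FPKM against 29.2 and 27.8 FPKM (limma adjusted p = 0.190). Edc4, a scaffold of the decapping complex, had 22.2 and 19.5 FPKM against 19.0 and 21.2 FPKM (limma adjusted p = 0.770). The groups did not overlap in Dazl and Tdrd3, as in 55.5% of all listed genes, and overlapped in Edc4.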

How the data were processed

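Polyadenylated RNA of 15 GV oocytes per library was sequenced after Smart-seq2. Per the methods and labels, the authors trimmed reads with Trim Galore 0.6.10, ran HISAT2 against GRCm39, used featureCounts to assign read pairs to exons (mapping quality of at least 10, primary alignments, without strand) and deposited FPKM computed by their own script. DESeq2, which the authors used on their counts, was not run here, and the ATAC-seq, methylation and histone data were not analysed here.

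Library totals were worked out from 5 mitochondrial tRNA genes, whose lengths are known. For 99.9% of the genes, the smallest gene length that made the values of all 4 libraries whole within a tolerance of 0.0001 then gave the read pairs, of which the listed genes held 98.2% per library. Since a multiple of that length also gives whole values, these read pairs are the fewest that explain the FPKM.

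Values were taken as log2(FPKM + 0.5) and compared with the lmFit and eBayes functions of limma 3.58.1 (R 4.3.3), allowing a variance trend, with Benjamini-Hochberg adjustment over all genes tested and two-sided p-values. The procedure was tested on simulated data, in which the changed genes had random directions and no shift was common to all genes. The simulation therefore cannot tell how a common shift, as seen in these libraries, affects the calls. Ratios and intervals were computed with Python 3.11.15 and scipy 1.17.1. Gene positions came from GENCODE vM39 on GRCm39, a later release than that of the authors, and promoters from RefSeq on GRCm38.p6, used for their sequence only. The genes, lists and motifs were chosen with earlier results of these data known. Named genes are all members, every called gene of the other lists, the 3 others of highest mean FPKM in each list, and those not listed or below the filter. Alternatives were a pseudocount of 0.1 or 1, no filter, a mean of at least 5 FPKM, scaling by medians or quantiles, a constant prior variance, a block for the replicate number, voom on read pairs under either scaling (totals, medians), an adjusted p under 0.1 and each library left out. Both voom fits on genes with at least 10 read pairs were chosen after seeing the data.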

Additional observations from a re-analysis of the deposited data

How the results depend on the processing

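The cause of the changes below was not tested, unless the setting itself removes genes or libraries. Counts are given for all genes, the 10 members, the other piRNA pathway genes and the other germline RNA proteins in this order, against 926, 2, 3 and 2. With all listed genes, and likewise without the variance trend, limma called 0, 0, 0 and 0, with an unadjusted p under 0.05 in 4092 and 3449 of all genes. A mean of at least 5 FPKM gave 1496 (78.1% higher in SN), 3, 4 and 1. Median scaling gave 234, 0, 1 and 0, and quantile normalization 230 (32.2% higher), 0, 1 and 0. Voom gave 2292, 3, 6 and 5, and with median scaling 1701 (43.6% higher), 1, 6 and 3. Voom on genes with at least 10 read pairs gave 2255, 4, 7 and 4, and with median scaling 1737 (43.5% higher), 2, 7 and 3. An adjusted p under 0.1 gave 2370, 4, 6 and 3, and a pseudocount of 0.1 gave 773, 1, 2 and 1, with Ddx4 just short of the threshold (limma adjusted p = 0.0507). Leaving out 1 library gave 0 to 1685, 0 to 3, 0 to 7 and 0 to 2, the highest without NSN replicate 2 and 0 of all genes without NSN replicate 1 (2278 at an unadjusted p under 0.05). Without SN replicate 1 there were 148 and without SN replicate 2 there were 11. In these fits a lone library is assumed to vary like the others.

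The replicate number as a block gave 422 (63.0% higher), 1 (Ddx4), 1 (Tex19.2) and 0 calls. The correlation of the replicate differences between NSN and SN was -0.07, so no shift common to a replicate number was seen. Whether libraries of the same number share mice or a collection is not stated, and this correlation cannot tell.

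Values of Gtsf1 turned negative with median scaling (-0.13), voom with median scaling (-0.13, and -0.12 on genes with at least 10 read pairs) and, without a library, ranged from -0.11 to 0.16. Values of Asz1 did so with median scaling (-0.12), quantile normalization (-0.0121), voom with median scaling (-0.12 and -0.11) and, without a library, ranged from -0.094 to 0.17. Those of Edc4 ranged from -0.15 to 0.038 without a library. Over the other alternatives, 178 values stayed on their side of 0 and of the threshold, 38 no longer passed, 9 newly passed, 7 changed sign and 6 moved (Piwil2, Piwil4 and Pld6, not tested otherwise, in both voom fits on genes with at least 10 read pairs). Depth limits the members under 0.5 FPKM most, since Pld6 and Piwil4 rest on 1 to 12 read pairs per library as the fewest that explain their FPKM.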

Other observations

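The genes in this paragraph were chosen after their values were seen. Of the other piRNA pathway genes, Stk31, a tudor-domain kinase-like protein, had 35.6 and 38.0 FPKM in NSN and 46.3 and 48.4 FPKM in SN oocytes, just short of the threshold (log2 fold change 0.36, limma adjusted p = 0.0531). Tex15, a nuclear factor of piRNA-directed transposon silencing, had 5.41 and 7.19 FPKM in NSN and 9.33 and 10.5 FPKM in SN oocytes (0.62, limma adjusted p = 0.0582). Mybl1, the transcription factor of pachytene piRNA clusters, had 0.865 and 1.11 FPKM against 1.68 and 1.55 FPKM (0.51, limma adjusted p = 0.103). None of these 3 overlapped between the groups, as was the case for 55.5% of all listed genes. Spocd1, a nuclear partner of Piwil4 in fetal male germ cells, lay the other way, with 5.55 and 4.63 FPKM in NSN and 3.88 and 3.41 FPKM in SN oocytes (-0.43, limma adjusted p = 0.106). Gpat2, a mitochondrial protein that binds Piwil2, had 35 and 29 read pairs in NSN and 10 and 17 in SN oocytes, and 60.8% of its exon length overlaps Fahd2a. Voom on genes with at least 10 read pairs did not call Gpat2 (adjusted p = 0.0643). With median scaling that fit called it lower (adjusted p = 0.0498), beside 10.6% of its genes. On the recovered read pairs, voom called Stk31, Tex15 and Mybl1 higher, beside 19.7% of all genes called. With median scaling it called Tex15 higher and Spocd1 lower, beside 14.6%.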
